A study of Mus musculus with 18 samples.

Results

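The 7 genes described here encode enzymes, adaptors and brakes of the phosphoinositide 3-kinase (PI3K) pathway: Pik3ap1, Pik3cd, Pik3r1, Pik3ip1, Inpp5d, Akt1 and Akt2. They were taken by symbol and are 7 of the 24072 genes in the RNA table, of which 12839 passed the filter on low values; all 7 passed. Of the 14377 chromatin regions bound by EBF1 or PAX5 in the study's accessibility tables, 19 were assigned to these genes.

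The cells were C57BL6/J mouse fetal liver ProB cells of 3 genotypes: Ebf1-KO (both copies of Ebf1 knocked out), Pax5-KO (both copies of Pax5 knocked out) and WT. All 3 groups were grown on a layer of OP9 stromal cells, in medium to which the ligands of KIT and FLT3 and interleukin-7 were added, so the WT cells share that culture too. RNA-seq and ATAC-seq, which counts transposase insertions into open chromatin, were each done on 3 libraries per genotype, 18 in all. The comparisons ask how the loss of either transcription factor changes expression and accessibility. The labels do not say whether libraries of a genotype came from separate fetuses or cultures, so p-values measure the spread between these libraries, which may be technical.

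Class I PI3K is a heterodimer of a catalytic p110 and a regulatory p85-type subunit. Recruited to phosphorylated membrane adaptors, it makes the lipid PIP3, which draws AKT kinases to the membrane, and phosphatases such as SHIP1 remove that lipid. In B lineage cells the pathway carries signals from the pre-B cell receptor and cytokine receptors, and AKT restrains FOXO1, a factor needed for B cell development.

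RNA libraries held 27.3 to 89.1 M mapped reads and ATAC libraries 15.3 to 38.6 M tags. Reads of the targeted genes, counted over all exons, do not check the deletions: Ebf1 averaged 1338 ± 34.9 in Ebf1-KO, 1435 ± 71.9 in Pax5-KO and 4525 ± 268 in WT libraries, and Pax5 averaged 11.9 ± 3.45 in Ebf1-KO, 103 ± 5.94 in Pax5-KO and 1740 ± 73.4 in WT libraries (reads per 10 M mapped reads after TMM rescaling; SD, n = 3 each). Summed levels of 8 B lineage markers were 3198 to 3622 in Ebf1-KO, 8188 to 9933 in Pax5-KO and 22949 to 27260.3 in WT libraries. Il7r (mean 1910) and Ebf1 (1338) made up most of the Ebf1-KO sum, and Il7r averaged 826 in Pax5-KO and 2115 in WT. Cd79a, Cd79b, Vpreb1 and Igll1 averaged 1.71, 4.44, 1.53 and 8.25 in Ebf1-KO, against 2568, 1767, 1498 and 8696 in WT. The sums of 7 myeloid markers were 1038 to 1135 in Ebf1-KO (Cd14 at 0), 182 to 197 in Pax5-KO and 8.28 to 22.2 in WT (Elane and Cd14 at 0). Tyrobp (mean 764), Itgam (171) and Mpo (158) made up most of the Ebf1-KO sum. Elane averaged 0.0485, Csf1r 3.11 and Lyz2 1.79 in Ebf1-KO, against 0, 1.41 and 5.16 in WT. Those of 7 T and NK cell markers were 899 to 1152 in Ebf1-KO, 92.4 to 127 in Pax5-KO (Cd3e at 0) and 6.91 to 8.12 in WT (Cd3g at 0). Markers of stroma (8 genes) summed to 9.82 to 89.8 in Ebf1-KO, 7.24 to 135 in Pax5-KO and 58.5 to 232 in WT, with Dcn at 0 in every group and Lum in WT. The leukocyte gene Ptprc lay at 4647 to 5089 in Ebf1-KO, 3615 to 4577 in Pax5-KO and 1644 to 1686 in WT. These marker levels move with genotype, as do all contrasts below, and their part in the results was not tested; in bulk samples, fewer cells of a type and less RNA per cell cannot be told apart.

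Of the 7 genes, 5 passed the threshold in Ebf1-KO against WT (2 higher, 3 lower), 4 in Pax5-KO against WT (2 higher, 2 lower) and 6 in Ebf1-KO against Pax5-KO (2 higher, 4 lower). With the deposited scaling in place of TMM rescaling, 3 were higher and 2 lower in Ebf1-KO against WT, 2 and 1 in Pax5-KO against WT, and 2 and 2 between the knockouts. With that scaling 7095, 5976 and 3962 of all 12839 genes tested were called, and 73.9%, 74.5% and 56.8% of those calls were higher. A gene was called at an adjusted p under 0.05 in limma, with Benjamini-Hochberg adjustment over all genes tested. By the same rule 58.1% of all genes were called in Ebf1-KO against WT (30% higher, 28.1% lower), 49.8% in Pax5-KO against WT (25.9% higher, 24% lower) and 40.1% in Ebf1-KO against Pax5-KO (20.5% higher, 19.6% lower). The counts against WT are thus near the background, and 6 of 7 between the knockouts is above it. For these genes, the libraries of the groups compared were fully separated in each contrast that was called and overlapped in each that was not; over all genes, they were separated for 66.4% in Ebf1-KO against WT, 57.2% in Pax5-KO against WT and 49.7% in Ebf1-KO against Pax5-KO. The 7 genes rested on 352 to 34584 reads a library. Both knockouts had less Pik3ap1 and more Pik3r1 and Pik3ip1 RNA than WT. Pik3cd and Inpp5d fell in Ebf1-KO against WT and were lower there than in Pax5-KO, and Akt2 fell in Pax5-KO against WT and was lower there than in Ebf1-KO.

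**Figure D1:**
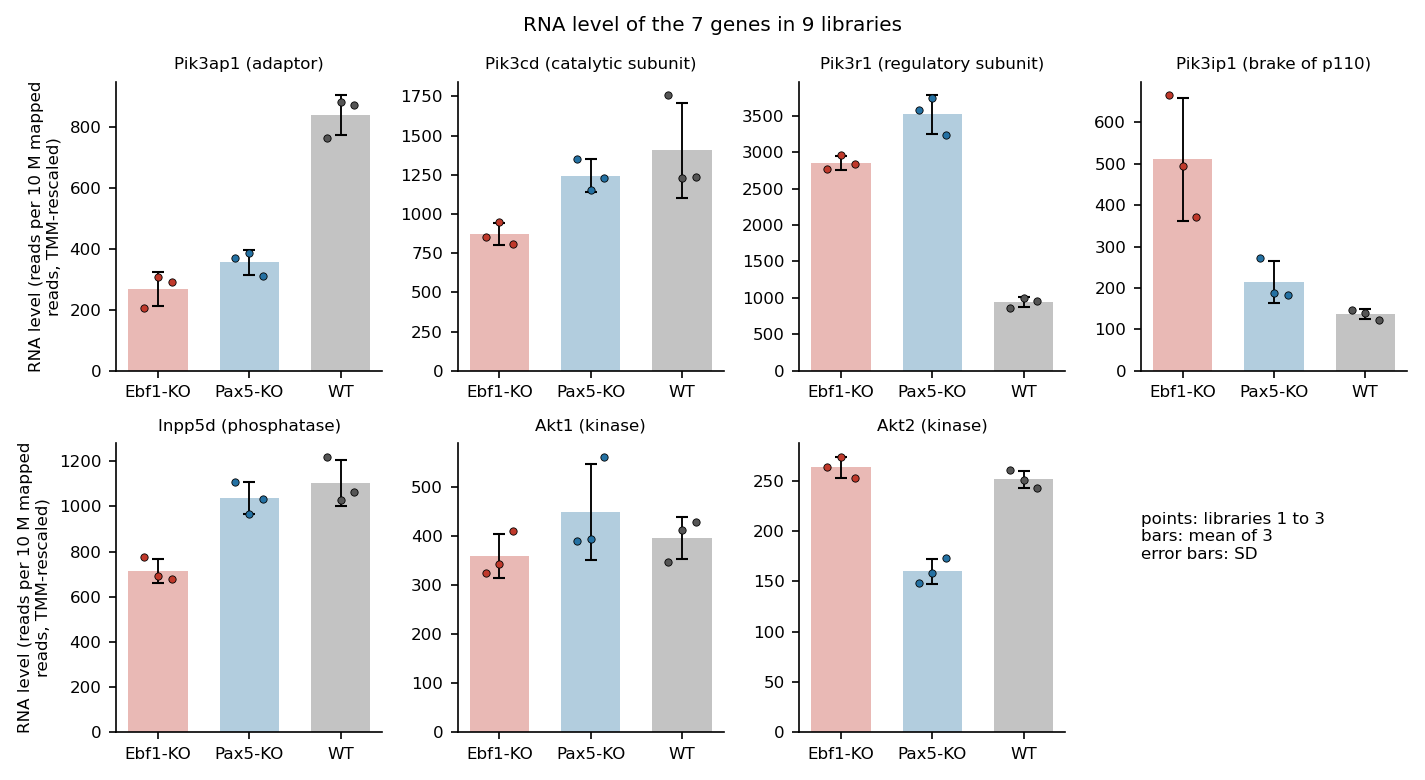
RNA level of each of the 7 genes (vertical axis: reads per 10 M mapped reads after TMM rescaling, from 0) in Ebf1-KO, Pax5-KO and WT libraries; points are the 3 libraries, bars the mean and error bars the SD. Pik3r1 stands at 2767 to 3745 in the knockouts and at 861 to 999 in WT, while Pik3ap1 stands at 206 to 387 in the knockouts and at 764 to 881 in WT.

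Pik3ap1 (NM_031376, chr19:41274218-41385070 on the minus strand, mm10) encodes BCAP, a B cell adaptor whose phosphorylated tyrosines recruit PI3K. Its RNA level was 206, 308 and 292 in Ebf1-KO libraries, 368, 387 and 311 in Pax5-KO libraries and 764, 881 and 869 in WT libraries. Every knockout library lay below every WT library. Against WT, the log2 fold change was -1.66 (SE 0.14; adjusted p = 6.27e-07, limma) in Ebf1-KO and -1.24 (SE 0.14; adjusted p = 1.33e-05, limma) in Pax5-KO, that is 0.321 and 0.424 of the WT mean. Between the knockouts it was lower in Ebf1-KO by a log2 fold change of -0.42 (SE 0.14; adjusted p = 0.034, limma), a call that was lost without Ebf1-KO library 1 (-0.24, adjusted p = 0.123), Pax5-KO library 1 (-0.39, 0.0855) or Pax5-KO library 2 (-0.35, 0.122), and with the deposited scaling (adjusted p = 0.155).

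Pik3ap1 held 7 of the 19 bound regions, more than any other of the 7 genes, and its promoter region was bound by both factors. That region, chr19:41385305-41385643 (mm10), centres 404 bp upstream of the start site. Its middle 300 bases (chr19:41385324-41385623, plus strand, RefSeq GRCm38.p6) are shown because this region had the lowest ratio of Ebf1-KO to WT signal of all 19 (0.108). Capitals mark its match to TCCCNNGGGA, the EBF1 palindrome, which reads the same on both strands.

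Pik3ap1 promoter region: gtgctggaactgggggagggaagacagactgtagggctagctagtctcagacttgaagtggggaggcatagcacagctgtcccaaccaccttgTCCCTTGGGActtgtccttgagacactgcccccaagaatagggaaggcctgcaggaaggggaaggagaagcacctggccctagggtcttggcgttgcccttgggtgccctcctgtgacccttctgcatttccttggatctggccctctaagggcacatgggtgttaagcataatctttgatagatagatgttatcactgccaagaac

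The palindrome was found in 16.5% of the 14372 bound regions scanned, in 27.2% of those bound by EBF1 only, 0.775% of those bound by PAX5 only and 14.1% of those bound by both. Among the 19 regions it was in 6: 5 of 11 bound by EBF1 only, 0 of 6 bound by PAX5 only and 1 of 2 bound by both. Capitals in the sequences below mark it too, except in the Inpp5d sequence whose capitals mark AGCNTGAC, a PAX5 core (GTCANGCT on the other strand), found in 5.82% of all regions and in 1 of the 19. The 2 motifs do not overlap in these sequences. A match describes letters and is not a measured site.

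Signal at the Pik3ap1 promoter was 2.34, 5.45 and 3.84 tags per 10 M in Ebf1-KO libraries, 11.99, 11.9 and 10.4 in Pax5-KO libraries and 43.1, 30.5 and 33.7 in WT libraries. The 3 groups were fully separated, with Ebf1-KO lowest. The ATAC log2 fold changes were -2.95 (SE 0.27; adjusted p = 1.46e-16, limma) in Ebf1-KO against WT, -1.55 (SE 0.27; adjusted p = 1.06e-06) in Pax5-KO against WT and -1.40 (SE 0.27; adjusted p = 3.51e-05) in Ebf1-KO against Pax5-KO. Against WT most bound regions were lower in both knockouts, with a median over all 14365 tested regions of -0.78 for Ebf1-KO, -0.75 for Pax5-KO (both against WT) and -0.02 between the knockouts, so the promoter lay -2.17, -0.80 and -1.38 from those medians. Its 3 calls also passed with TMM scaling and with quantile normalization.

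Around the promoter, a PAX5-only region 6050 bp upstream had 2.34, 1.82 and 2.24 tags per 10 M in Ebf1-KO libraries, 2.12, 1.86 and 2.17 in Pax5-KO libraries and 11.8, 12.2 and 7.51 in WT libraries. Both knockouts lay below WT and overlapped each other, with ATAC log2 fold changes against WT of -1.85 in Ebf1-KO (adjusted p = 2.04e-06, limma) and -1.89 in Pax5-KO (adjusted p = 1.82e-06, limma). The Ebf1-KO call was lost with quantile normalization (-0.59, adjusted p = 0.133) and the Pax5-KO call was not. A PAX5-only region in intron 1, 2422 bp downstream, had 3.12, 3.33 and 3.52 in Ebf1-KO libraries, 1.06, 5.57 and 2.61 in Pax5-KO libraries and 8.49, 8.55 and 8.80 in WT libraries. It was lower in both knockouts (-1.15 and -1.39; adjusted p = 0.00277 and 0.000358, limma), yet neither call held with TMM scaling (adjusted p = 0.367 and 0.169). The other 4 regions of Pik3ap1, 3 of them bound by EBF1 only, held 2 to 15 reads in a library; of these, 2 EBF1-only regions were called lower in Ebf1-KO against WT (-0.90 at 53897 bp downstream, adjusted p = 0.0306, and -0.87 at 17149 bp upstream, adjusted p = 0.0472, limma). Neither of those calls held with TMM scaling (adjusted p = 0.522 and 0.547), and quantile normalization turned both values positive (0.0957 and 0.0562; adjusted p = 0.838 and 0.914, limma). Leaving out single libraries also ended each of them, with adjusted p from 0.0503 to 0.123 for the region 53897 bp downstream (Ebf1-KO libraries 2 and 3, WT libraries 2 and 3) and from 0.0528 to 0.175 for the other (Ebf1-KO libraries 1 and 3, Pax5-KO library 2, WT libraries 1 and 2). The region 53897 bp downstream was also called lower in Ebf1-KO than in Pax5-KO (-0.98, adjusted p = 0.0441, limma), lost with quantile normalization (adjusted p = 0.109) and without any 1 of 6 libraries (Ebf1-KO 1, 2 and 3, Pax5-KO 2 and 3, WT 3; adjusted p from 0.0503 to 0.151). The EBF1-only region 30160 bp downstream was not called (0.74 in Ebf1-KO against WT, adjusted p = 0.0732, limma), but was called higher with TMM scaling in Ebf1-KO (1.35, adjusted p = 0.00122) and Pax5-KO (1.23, adjusted p = 0.00492), and likewise with quantile normalization (1.74 and 1.33; adjusted p = 7.18e-05 and 0.00206, limma). The region 56128 bp downstream was called in Ebf1-KO against WT with TMM scaling (0.86, adjusted p = 0.0471) and quantile normalization (1.25, adjusted p = 0.00362) but not with the deposited scaling (0.24, adjusted p = 0.612, limma), and quantile normalization called the region 53897 bp downstream higher in Pax5-KO against WT (0.88, adjusted p = 0.0397, limma).

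Pik3cd (NM_008840, chr4:149649168-149698708, minus strand) encodes p110δ, the catalytic subunit that predominates in lymphocytes. Its RNA level was 855, 950.1 and 811 in Ebf1-KO libraries, 1354, 1151 and 1232 in Pax5-KO libraries and 1757, 1228 and 1236 in WT libraries. Ebf1-KO libraries lay below all others, and Pax5-KO and WT libraries overlapped. Pik3cd fell in Ebf1-KO against WT (log2 fold change -0.67, SE 0.13; adjusted p = 0.000696, limma) and was lower in Ebf1-KO than in Pax5-KO (-0.51, SE 0.13; adjusted p = 0.00671, limma). Pax5-KO against WT did not pass, at -0.16 (95% interval -0.41 to 0.09; adjusted p = 0.335, limma), and that value changes sign with the deposited scaling (0.12) and without WT library 1 (0.0127).

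The 1 bound region of Pik3cd, chr4:149696621-149696891 in intron 1, 1952 bp downstream of the start site, is bound by EBF1 only and holds the palindrome. It is shown whole (plus strand), and its signal was lower in both knockouts.

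Pik3cd intron 1 region: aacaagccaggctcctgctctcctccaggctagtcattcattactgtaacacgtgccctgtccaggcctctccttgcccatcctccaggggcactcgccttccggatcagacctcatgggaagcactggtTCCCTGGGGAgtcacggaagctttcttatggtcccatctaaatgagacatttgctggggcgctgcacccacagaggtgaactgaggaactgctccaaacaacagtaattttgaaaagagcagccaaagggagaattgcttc

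Its signal was 5.06, 4.54 and 3.84 tags per 10 M in Ebf1-KO libraries, 9.17, 8.22 and 7.82 in Pax5-KO libraries and 16.3, 17.4 and 18.4 in WT libraries, in 3 separate ranges. The ATAC log2 fold change was -1.75 (SE 0.28; adjusted p = 6.38e-08, limma) in Ebf1-KO and -0.97 (SE 0.28; adjusted p = 0.0023) in Pax5-KO against WT, and -0.78 (adjusted p = 0.0325) between the knockouts. Relative to the median region these are -0.97, -0.22 and -0.76. With TMM scaling the Pax5-KO call was lost (-0.10, adjusted p = 0.784), and quantile normalization ended all 3 (adjusted p = 0.0539 in Ebf1-KO). The call between the knockouts was also lost without any 1 of Ebf1-KO libraries 2 and 3 and Pax5-KO libraries 1, 2 and 3 (adjusted p from 0.0565 to 0.127).

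Pik3r1 (NM_001077495, chr13:101680761-101768217, minus strand) encodes p85α and its shorter forms, which stabilise p110, hold it inactive and bring it to phosphotyrosines. Its RNA level was 2767, 2955 and 2832 in Ebf1-KO libraries, 3572, 3745 and 3229 in Pax5-KO libraries and 861, 999 and 965 in WT libraries. The 3 groups did not overlap, and every knockout library lay above every WT library. Pik3r1 rose in Ebf1-KO (log2 fold change 1.60, SE 0.08; adjusted p = 4.24e-09, limma) and in Pax5-KO (1.90, SE 0.08; adjusted p = 1.49e-09, limma), to 3.03 and 3.73 times the WT mean. Ebf1-KO libraries were below Pax5-KO libraries (-0.30, SE 0.08; adjusted p = 0.0105, limma), a call lost with the deposited scaling (adjusted p = 0.248).

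The 3 bound regions of Pik3r1 are intergenic and far from its start site, and they did not move together. An EBF1-only region 141048 bp upstream (chr13:101909130-101909400) gained signal in both knockouts, the only 1 of the 19 called higher in each comparison with WT with the deposited scaling. The Pik3ap1 region 30160 bp downstream was so called with TMM scaling and quantile normalization, and the Akt2 region 4494 bp downstream with the latter. The Pik3r1 region 141048 bp upstream holds the palindrome and is shown whole (plus strand). Its signal was higher in both knockouts, as was the gene's RNA.

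Pik3r1 upstream region: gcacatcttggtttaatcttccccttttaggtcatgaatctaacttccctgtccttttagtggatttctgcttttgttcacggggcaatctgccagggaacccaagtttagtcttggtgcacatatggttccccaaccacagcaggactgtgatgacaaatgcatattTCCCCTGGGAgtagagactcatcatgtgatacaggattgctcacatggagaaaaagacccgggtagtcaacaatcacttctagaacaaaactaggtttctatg

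Its signal was 8.18, 6.96 and 10.2 tags per 10 M in Ebf1-KO libraries, 7.41, 8.48 and 4.78 in Pax5-KO libraries and 1.96, 0.57 and 3.63 in WT libraries, from 2 to 32 reads a library. Every knockout library was above every WT library, and the knockouts overlapped. It rose in Ebf1-KO (ATAC log2 fold change 1.75, SE 0.34; adjusted p = 4.75e-06, limma) and Pax5-KO (1.47, SE 0.34; adjusted p = 0.000126, limma), which is 2.53 and 2.22 above the median region. Both calls held with TMM scaling and quantile normalization, which raise values against WT. A PAX5-only region 160200 bp upstream had 0, 2.72 and 0 in Ebf1-KO libraries, 0.71, 0 and 0.43 in Pax5-KO libraries and 8.49, 3.13 and 4.14 in WT libraries, and was lower in both (-1.92 and -2.12; adjusted p = 3.70e-05 and 7.75e-06, limma). This region held 0 to 16 reads a library. Quantile normalization ended its Ebf1-KO call (adjusted p = 0.0927, limma), as did DESeq2 (adjusted p = 0.186). In Pax5-KO, DESeq2 gave an adjusted p of 0.0491. The third region, EBF1-only and named as 68398 bp downstream (chr13:101624097-101624367), held 0 to 12 reads a library. That distance is counted from another start site than that of NM_001077495, and the region lies beyond the end of the gene. It had 1.95, 0.30 and 0.64 in Ebf1-KO libraries, 1.41, 1.59 and 0 in Pax5-KO libraries and 2.61, 2.85 and 3.11 in WT libraries. Its 2 lower calls (-1.06 in each knockout; adjusted p = 0.0186 and 0.0189, limma) were lost with TMM scaling (adjusted p = 0.336 and 0.349) and without single libraries: the Ebf1-KO call without Ebf1-KO library 2 or 3 or WT library 3 (0.0521 to 0.122), the Pax5-KO call without Pax5-KO library 3 or WT library 3 (0.0535 to 0.234).

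Pik3ip1 (NM_178149, chr11:3330731-3342971, plus strand) encodes a transmembrane protein that binds p110 and dampens its activity. Its RNA level was 665, 494 and 372 in Ebf1-KO libraries, 273, 187 and 184 in Pax5-KO libraries and 147, 139 and 124 in WT libraries. The 3 groups did not overlap, with the widest spread in Ebf1-KO. Pik3ip1 rose in Ebf1-KO (log2 fold change 1.86, SE 0.20; adjusted p = 4.56e-06, limma) to 3.74 times the WT mean, and was 2.38 times as high in Ebf1-KO as in Pax5-KO (1.23, SE 0.20; adjusted p = 0.000273, limma). The rise in Pax5-KO against WT was smaller (0.63, SE 0.20; adjusted p = 0.0192, limma) and was lost without Pax5-KO library 1 (0.44, adjusted p = 0.0802) or WT library 3 (0.56, adjusted p = 0.0687). In each genotype the level fell from library 1 to library 3. With replicate number as a block this rise had an adjusted p of 0.000467 (limma), and with the deposited scaling 0.000705 (limma). Of its 4272 exon bases, 91 overlap Gm12592 on the opposite strand (GENCODE vM21), and the sources do not say whether counting used strand, so reads there cannot be assigned; exons of the other 6 genes overlapped no other gene.

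Its 1 bound region, EBF1-only in intron 3 (chr11:3332412-3332682, 1816 bp downstream), holds a palindrome and is shown whole (plus strand). The ATAC signal there was lower where the RNA was higher.

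Pik3ip1 intron 3 region: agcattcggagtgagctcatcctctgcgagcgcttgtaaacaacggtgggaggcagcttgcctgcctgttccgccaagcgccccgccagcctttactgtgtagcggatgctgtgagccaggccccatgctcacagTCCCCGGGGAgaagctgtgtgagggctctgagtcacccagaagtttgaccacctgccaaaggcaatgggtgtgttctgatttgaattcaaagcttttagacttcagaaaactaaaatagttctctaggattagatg

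The signal was 26.5, 30.6 and 35.2 tags per 10 M in Ebf1-KO libraries, 48.7, 30.2 and 39.1 in Pax5-KO libraries and 87.5, 42.7 and 65.0 in WT libraries. Ebf1-KO libraries lay below all WT libraries, and Pax5-KO overlapped WT. The ATAC log2 fold change was -1.01 (SE 0.28; adjusted p = 0.00113, limma) in Ebf1-KO and -0.68 (SE 0.28; adjusted p = 0.0309, limma) in Pax5-KO, or -0.23 and 0.07 relative to the median region. TMM scaling ended the Ebf1-KO call (-0.12, adjusted p = 0.593). The Pax5-KO value turned positive with TMM scaling (0.24, adjusted p = 0.298) and quantile normalization (0.29, adjusted p = 0.101), and quantile normalization also called the region lower in Ebf1-KO than in Pax5-KO (-0.85, adjusted p = 2.15e-05, limma). Its deposited-scaling call in Pax5-KO was lost without Ebf1-KO library 2, Pax5-KO library 2 or 3, or WT library 1 or 3 (adjusted p from 0.0507 to 0.201).

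Inpp5d (NM_001110192, chr1:87620312-87720510, plus strand) encodes SHIP1, the blood cell phosphatase that removes the 5-phosphate of PIP3. Its RNA level was 776, 691 and 679 in Ebf1-KO libraries, 1107, 966 and 1032 in Pax5-KO libraries and 1219, 1026 and 1064 in WT libraries. Ebf1-KO libraries lay below all others, as for Pik3cd, and Pax5-KO overlapped WT. Inpp5d fell in Ebf1-KO against WT (log2 fold change -0.62, SE 0.09; adjusted p = 6.82e-05, limma), a call lost with the deposited scaling (-0.29, adjusted p = 0.0701), and was lower than in Pax5-KO (-0.53, SE 0.09; adjusted p = 0.000398, limma). Pax5-KO against WT did not pass, at -0.09 (95% interval -0.27 to 0.09; adjusted p = 0.431, limma), with a positive value under the deposited scaling (0.18).

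Inpp5d held 5 bound regions, all in its introns 1 and 2, of which 2 lost and 1 gained signal in Ebf1-KO. The region bound by both factors in intron 1, 1685 bp downstream (chr1:87621807-87622188), is shown by its middle 300 bases (chr1:87621848-87622147, plus strand). It is the other region bound by both factors and the 1 with the PAX5 core. The EBF1-only region in intron 2, 37941 bp downstream (chr1:87658118-87658388, plus strand), is shown whole and was lower in Ebf1-KO than in both other genotypes.

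Inpp5d intron 1 region, PAX5 core in capitals: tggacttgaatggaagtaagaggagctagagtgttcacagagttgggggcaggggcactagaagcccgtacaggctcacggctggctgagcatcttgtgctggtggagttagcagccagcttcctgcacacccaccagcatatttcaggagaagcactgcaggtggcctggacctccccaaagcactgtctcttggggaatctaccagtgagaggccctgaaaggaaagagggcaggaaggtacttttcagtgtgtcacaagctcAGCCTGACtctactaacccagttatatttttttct

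Inpp5d intron 2 region: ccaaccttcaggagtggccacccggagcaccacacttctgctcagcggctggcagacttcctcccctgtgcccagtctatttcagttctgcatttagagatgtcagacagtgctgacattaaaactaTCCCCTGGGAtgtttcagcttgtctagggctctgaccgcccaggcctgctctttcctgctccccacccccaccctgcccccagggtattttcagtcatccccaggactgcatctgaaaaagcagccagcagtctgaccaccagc

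The intron 1 region had 5.06, 6.96 and 8.96 tags per 10 M in Ebf1-KO libraries, 19.8, 14.1 and 11.3 in Pax5-KO libraries and 71.9, 29.6 and 47.4 in WT libraries. The 3 groups were separate and in the same order as at the Pik3ap1 promoter. Its ATAC log2 fold change was -2.60 (SE 0.28; adjusted p = 5.06e-14, limma) in Ebf1-KO and -1.60 (SE 0.28; adjusted p = 5.55e-07, limma) in Pax5-KO against WT, which is -1.82 and -0.86 from the median region. Between the knockouts it was -0.999 (adjusted p = 0.00422, limma), lost without Ebf1-KO library 1 (-0.81, adjusted p = 0.0564). All 3 calls passed with TMM scaling and quantile normalization.

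The palindrome-bearing region in intron 2 had 3.5, 3.63 and 3.84 in Ebf1-KO libraries, 14.1, 7.16 and 8.69 in Pax5-KO libraries and 15.0, 10.5 and 13.7 in WT libraries. Ebf1-KO lay below both other groups, which overlapped each other. The ATAC log2 fold change was -1.59 (SE 0.29; adjusted p = 1.84e-06, limma) against WT, lost with quantile normalization (adjusted p = 0.364), and -1.19 (SE 0.29; adjusted p = 0.00111, limma) against Pax5-KO, which held with each scaling. Pax5-KO against WT did not pass (-0.40, adjusted p = 0.252), with a positive value under TMM scaling and quantile normalization (0.46, adjusted p = 0.157, and 0.71, adjusted p = 0.0255, limma), the second of which was called higher. In the opposite direction, a PAX5-only region 16911 bp downstream had 14.4, 13.3 and 12.8 in Ebf1-KO libraries, 3.17, 5.57 and 2.61 in Pax5-KO libraries and 3.92, 7.69 and 6.99 in WT libraries. Ebf1-KO lay above both other groups. The ATAC log2 fold change was 1.05 (SE 0.30; adjusted p = 0.00204, limma) against WT and 1.65 (SE 0.30; adjusted p = 1.10e-05, limma) against Pax5-KO. Both calls held with each scaling, though TMM scaling and quantile normalization raise values against WT. The remaining 2 regions, 32044 and 32621 bp downstream, held 2 to 17 reads a library and were called in no comparison with any of the 3 scalings.

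Akt1 (NM_009652, chr12:112653821-112674276, minus strand) and Akt2 (NM_001110208, chr7:27591560-27639453, plus strand) encode kinases that PIP3 brings to the membrane and that phosphorylate FOXO factors, TSC2 and GSK3. Akt1 RNA was 326, 344 and 410.0 in Ebf1-KO libraries, 390.5, 394 and 562 in Pax5-KO libraries and 347, 412 and 428 in WT libraries. With libraries not paired by number, all groups overlapped, and no Akt1 contrast passed in the main fit, which has no replicate block. The log2 fold change was -0.14 (95% interval -0.42 to 0.15; adjusted p = 0.438, limma) in Ebf1-KO and 0.17 (95% interval -0.12 to 0.45; adjusted p = 0.369, limma) in Pax5-KO against WT, and -0.30 (adjusted p = 0.120, limma) between the knockouts. The value in Ebf1-KO turned positive with the deposited scaling (0.19) and that in Pax5-KO turned negative without Pax5-KO library 3 (-0.00696). With replicate number as a block, the contrast between the knockouts passed (adjusted p = 0.0110, limma). Each Ebf1-KO library lay below the Pax5-KO library of the same number. No bound region was assigned to Akt1.

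Akt2 RNA was 264, 274 and 253 in Ebf1-KO libraries, 149, 158 and 173 in Pax5-KO libraries and 260.4, 251 and 243 in WT libraries. Pax5-KO libraries lay below all others, and Ebf1-KO overlapped WT. Akt2 fell in Pax5-KO against WT (log2 fold change -0.65, SE 0.09; adjusted p = 5.54e-05, limma) to 0.636 of the WT mean, a call lost with the deposited scaling (-0.38, adjusted p = 0.0603). It was higher in Ebf1-KO than in Pax5-KO (0.72, SE 0.09; adjusted p = 2.89e-05, limma). In Ebf1-KO against WT it did not pass (0.07, 95% interval -0.11 to 0.24; adjusted p = 0.538, limma), but did with the deposited scaling (0.39, adjusted p = 0.0446).

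Of the 2 EBF1-only regions assigned to Akt2, the one 4494 bp downstream was called in no comparison with the deposited scaling and higher in Pax5-KO against WT with TMM scaling (0.67, adjusted p = 0.0159, limma). Quantile normalization called it higher in Ebf1-KO (0.62, adjusted p = 0.0216, limma) and in Pax5-KO (0.95, adjusted p = 0.000941, limma), where the deposited scaling gave negative values. The other, 12929 bp upstream of its start site, lies in intron 8 of a neighbouring gene, 2310022A10Rik. It had 3.12, 4.54 and 1.92 tags per 10 M in Ebf1-KO libraries, 17.6, 10.9 and 10.9 in Pax5-KO libraries and 7.84, 5.70 and 4.40 in WT libraries. Pax5-KO libraries were highest, and Ebf1-KO overlapped WT. The ATAC log2 fold change was 1.01 (SE 0.31; adjusted p = 0.00413, limma) in Pax5-KO against WT, lost without Pax5-KO library 1 (0.79, adjusted p = 0.0544), and -1.77 (SE 0.31; adjusted p = 4.20e-06, limma) in Ebf1-KO against Pax5-KO. Ebf1-KO against WT was called lower (-0.75, adjusted p = 0.033, limma) but lies 0.03 from the median region. That call did not hold with TMM scaling (-0.02, adjusted p = 0.957) or without Ebf1-KO library 1 or 3 or WT library 1 (adjusted p from 0.0575 to 0.203), and quantile normalization gave a positive value (0.47). At this region, signal and Akt2 RNA were ordered oppositely: Pax5-KO had the highest signal and the lowest RNA.

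**Figure D2:**
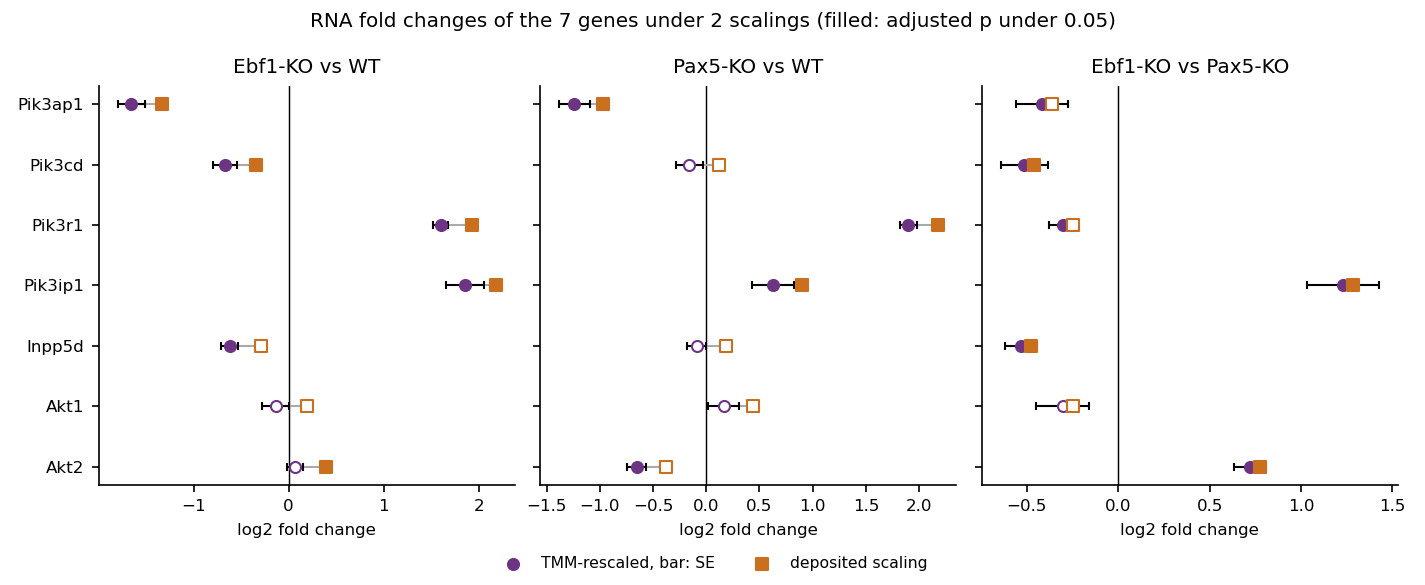
RNA log2 fold changes of the 7 genes (horizontal axis) in the 3 comparisons, from TMM-rescaled values (circles, bars SE) and with the deposited scaling (squares); filled symbols have an adjusted p under 0.05 (limma). Pik3ap1, Pik3r1 and Pik3ip1 stay on their side of 0 under both in each comparison with WT, while Akt1 in Ebf1-KO and Pik3cd and Inpp5d in Pax5-KO cross 0 without passing.

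Over all 19 regions, 14 were called in Ebf1-KO against WT (2 higher, 12 lower), 10 in Pax5-KO against WT (2 higher, 8 lower) and 7 in Ebf1-KO against Pax5-KO (1 higher, 6 lower). These splits rest on the scaling: TMM scaling gave 4 higher and 6 lower calls in Ebf1-KO against WT, 4 and 4 in Pax5-KO against WT and 1 and 6 between the knockouts, and quantile normalization gave 5 and 3, 6 and 4, and 1 and 5. Of all 14365 tested regions, TMM scaling called 7196, 5035 and 4078 in these comparisons, and quantile normalization 6908, 5808 and 2872. Among all tested regions 54.4% were called in Ebf1-KO against WT (3.28% higher, 51.1% lower), 53.7% in Pax5-KO against WT (2.11% higher, 51.5% lower) and 21.7% in Ebf1-KO against Pax5-KO (9.06% higher, 12.6% lower). Libraries of the groups compared did not overlap at 14, 9 and 7 of the 19 regions in these comparisons, beside 59.2%, 57.3% and 35.9% of all regions. Calls that held with the deposited scaling, TMM scaling and quantile normalization were 2 of 2 higher and 2 of 12 lower calls in Ebf1-KO against WT, 2 of 2 higher and 4 of 8 lower calls in Pax5-KO against WT, and 1 of 1 higher and 4 of 6 lower calls between the knockouts. Higher regions made up 6.03% and 3.93% of all calls against WT in Ebf1-KO and Pax5-KO with the deposited scaling, 40.6% and 39.3% with TMM scaling and 54.7% and 53.3% with quantile normalization. Bound regions took 0.825% to 1.11% of tags in knockout libraries and 1.52% to 2.31% in WT libraries.

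**Figure D3:**
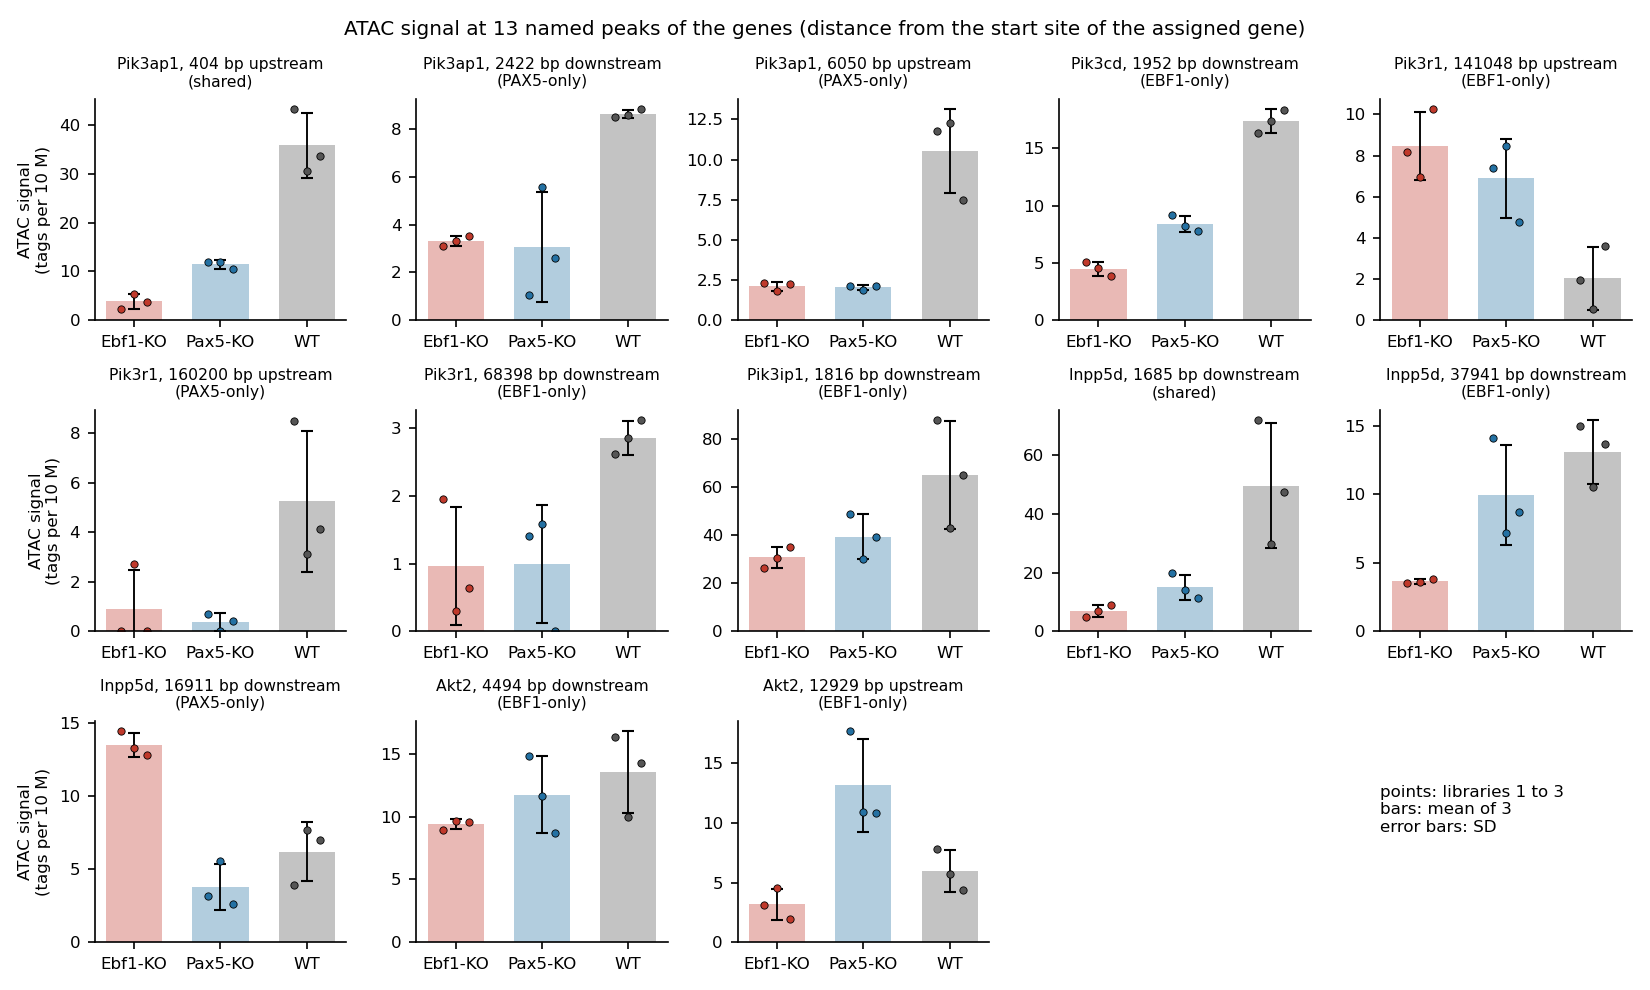
ATAC signal (vertical axis: tags per 10 M, from 0) at 13 bound regions of the genes in Ebf1-KO, Pax5-KO and WT libraries. Titles give the distance from a start site of the gene and the factors that bind there. Points are libraries, bars means, error bars SD. The Pik3ap1 promoter and the Inpp5d region 1685 bp downstream run lowest in Ebf1-KO and highest in WT, whereas the Pik3r1 region 141048 bp upstream is highest in the knockouts.

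**Figure D4:**
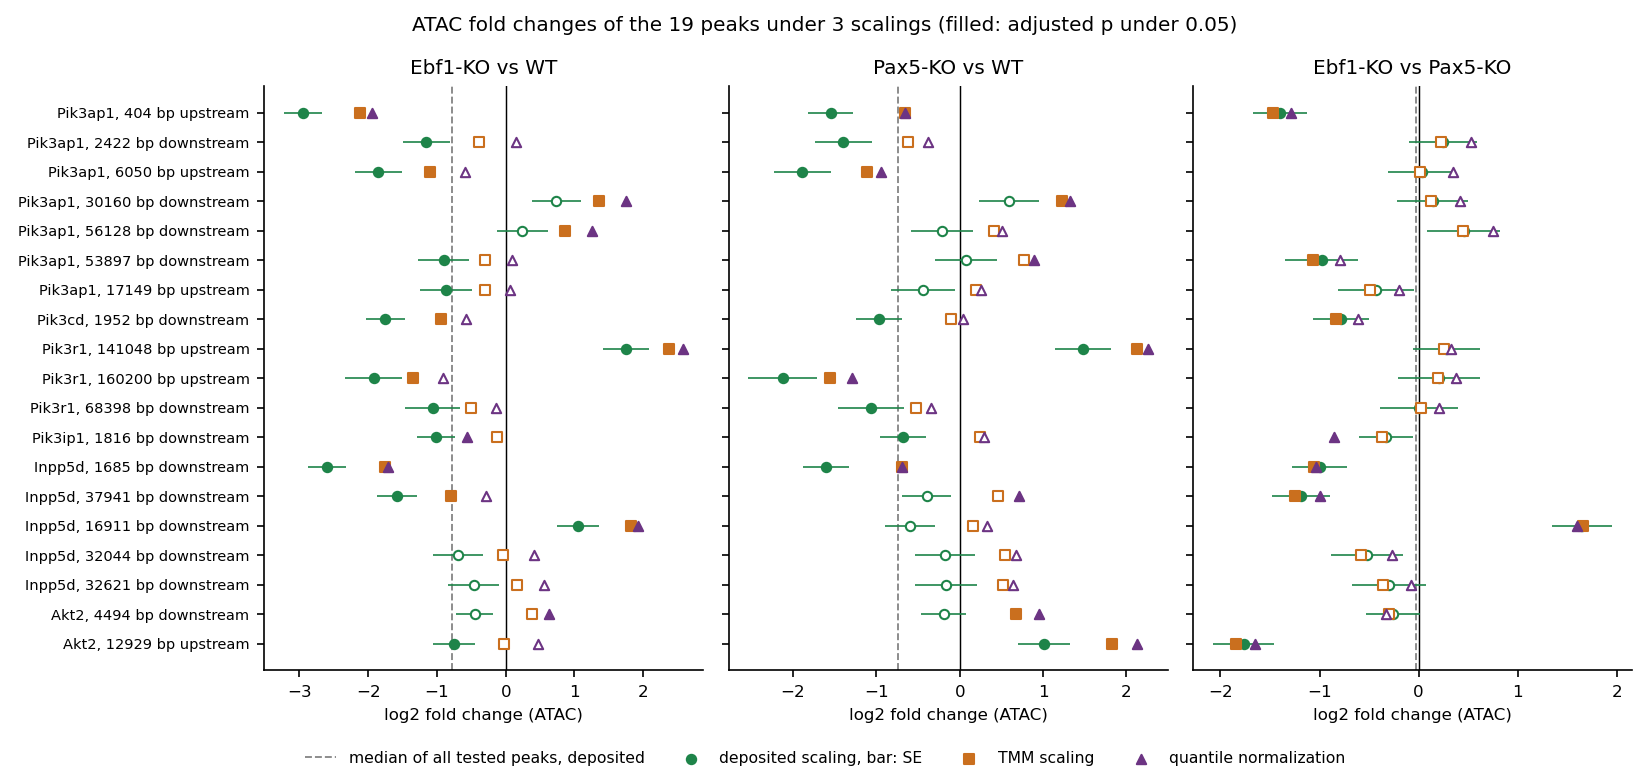
ATAC log2 fold changes (horizontal axis) of all 19 regions in 3 comparisons under the deposited scaling (circles, bars SE), TMM scaling (squares) and quantile normalization (triangles); filled symbols passed, and the dashed line is the median of all tested regions with the deposited scaling. Against WT, both other scalings lie to the right of the circles, where the median is -0.78 for Ebf1-KO and -0.75 for Pax5-KO, while between the knockouts, where it is -0.02, the 3 lie closer together.

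Per kilobase of exon, which allows levels of different genes to be set side by side, the order of the 7 genes differed between genotypes. In Ebf1-KO, Pik3r1 was highest (413 ± 13.9 reads per kb and 10 M mapped reads), followed by Pik3ip1 (228 ± 65.9), Pik3cd (172 ± 14.05), Inpp5d (146 ± 10.8), Akt1 (135 ± 16.6), Pik3ap1 (103 ± 21.2) and Akt2 (83.8 ± 3.29; SD, n = 3 each); library ranges overlapped between Pik3ip1 and Pik3cd, Inpp5d and Akt1, and Pik3ap1 and Akt2. In Pax5-KO, Pik3r1 (509.7 ± 38.1) stood above Pik3cd (246 ± 20.2), Inpp5d (211 ± 14.4), Akt1 (168 ± 36.6), Pik3ap1 (137 ± 15.4), Pik3ip1 (96.1 ± 22.7) and Akt2 (50.8 ± 3.87), and neighbours from Inpp5d to Pik3ip1 overlapped. In WT, Pik3ap1 led (323 ± 24.9), and its range overlapped that of Pik3cd (278 ± 59.9), which overlapped that of Inpp5d (225 ± 20.8). Below them came Akt1 (148 ± 16.2) and Pik3r1 (137 ± 10.4), which overlapped, then Akt2 (79.9 ± 2.79) and Pik3ip1 (61.1 ± 5.21). Pik3ap1, which led in WT, had rank 6 of 7 in Ebf1-KO and rank 5 in Pax5-KO, and Pik3r1, at rank 5 in WT, had rank 1 in both knockouts.

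Ratios within a library do not depend on scaling between libraries and were set up after the values had been seen. The ratio of Pik3r1 to Pik3cd per kb was 2.41 ± 0.142 in Ebf1-KO, 2.08 ± 0.265 in Pax5-KO and 0.510 ± 0.130 in WT libraries. Both knockouts lay above WT without overlap. The ratio of Pik3ip1 to Pik3ap1 was 2.37 ± 1.22 in Ebf1-KO, 0.704 ± 0.151 in Pax5-KO and 0.191 ± 0.0296 in WT libraries, in 3 separate ranges. Pik3cd made up 34.4% ± 0.950 of the RNA per kb of the 4 class I catalytic genes in Ebf1-KO, 50.2% ± 3.72 in Pax5-KO and 57.9% ± 5.43 in WT libraries. Pik3r1 made up 87.3% ± 0.601 of the RNA per kb of Pik3r1, Pik3r2 and Pik3r3 in Ebf1-KO, 94.5% ± 0.65 in Pax5-KO and 82.2% ± 1.72 in WT libraries (SD, n = 3 each). Of 12 two-sided exact permutation tests over these 4 measures, 11 gave p = 0.1, the smallest that 3 against 3 libraries allow (Benjamini-Hochberg adjusted p = 0.109), so no test of this kind could pass 0.05. The other was Pik3r1 to Pik3cd between the knockouts (exact p = 0.3).

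Other genes of the pathway, 55 in all and all tested, divided about evenly. In Ebf1-KO against WT 18 rose and 19 fell (median log2 fold change -0.00765), in Pax5-KO against WT 18 rose and 17 fell (median 0.05), and between the knockouts 15 were higher and 13 lower in Ebf1-KO (median 0.04), beside medians of -0.01, 0.02 and -0.00485 over all genes. In these comparisons 37, 35 and 28 of the 55 were called, beside 58.1%, 49.8% and 40.1% of all genes. The counts by role below are to be read beside the same shares. With the deposited scaling, which moves the median gene by 0.31, 0.28 and 0.05, the list's splits were 25 higher to 15 lower, 23 to 12 and 15 to 10, and those of all genes 73.9%, 74.5% and 56.8% higher, against 51.6%, 51.9% and 51.0% after TMM rescaling. Values below are RNA log2 fold changes that passed the threshold (limma, adjusted p under 0.05), with group means as reads per 10 M.

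Among the 7 other class I subunits, 4 rose and 2 fell in each knockout against WT. Pik3cb, encoding p110β, rose by 3.42 in Ebf1-KO (mean 71.4 ± 7.69, against 5.82 ± 1.29 in WT) and by 1.53 in Pax5-KO (18.5 ± 1.81). Pik3cg, encoding p110γ, rose by 1.46 in Ebf1-KO (1575 ± 144, against 576 ± 86.5 in WT) and averaged 1100 ± 118 in Pax5-KO. Pik3ca, encoding p110α, was lower in both (-0.52 and -0.56), calls that the deposited scaling ended (adjusted p = 0.179 and 0.0573). Among regulatory genes, Pik3r3 was lower in Pax5-KO (-1.90; 17.5 ± 2.03, against 68.0 ± 7.21 in WT), Pik3r6, a partner of p110γ, rose there by 2.15 (203 ± 42.8, against 44.6 ± 6.19), and Pik3r5, the other such partner, was lower in Ebf1-KO (-0.86; 205 ± 23.9, against 376 ± 81.8).

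Of the 8 adaptors, 3 rose and 4 fell in Ebf1-KO, and 4 rose and 2 fell in Pax5-KO. Gab1, a docking protein, averaged 0.415 ± 0.375 in Ebf1-KO, 2.61 ± 0.645 in Pax5-KO and 119 ± 37.7 in WT libraries (-6.39 and -5.02). Dok2, a docking protein of myeloid and T cells, rose by 5.40 in Ebf1-KO and by 4.32 in Pax5-KO (195 ± 12.9 and 93.6 ± 26.3, against 3.70 ± 0.963 in WT), and Irs1, which docks PI3K to insulin receptors, rose by 1.26 in Ebf1-KO. Irs1 averaged 427 ± 88.1 in Ebf1-KO, 233 ± 7.44 in Pax5-KO and 175 ± 9.69 in WT libraries. Gab2, a relative of Gab1, rose by 0.88 in Pax5-KO (549 ± 57.4, against 297 ± 7.43 in WT) and averaged 462 ± 80.5 in Ebf1-KO. Irs2, a relative of Irs1, had 21.2, 3.54 and 2.62 in Ebf1-KO libraries, 0, 0 and 0.0932 in Pax5-KO libraries and 28.7, 20.9 and 16.9 in WT libraries. It was lower in Pax5-KO (-4.46), and its lower call in Ebf1-KO (-1.67, adjusted p = 0.0174, limma) was lost without Ebf1-KO library 2 or 3 or WT library 1 (adjusted p from 0.0657 to 0.0797), and with edgeR (adjusted p = 0.0773) and DESeq2 (adjusted p = 0.242).

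Of the 6 phosphatases, 2 rose and 3 fell in Ebf1-KO, and 1 rose and 4 fell in Pax5-KO. Inpp4a and Inpp4b, which both remove the 4-phosphate of the SHIP product, moved in opposite directions. Inpp4a rose by 3.66 and 3.00 (182 ± 23.2 in Ebf1-KO and 114 ± 7.83 in Pax5-KO, against 13.8 ± 4.23 in WT), and Inpp4b was lower (-3.99 and -2.72; 44.5 ± 9.86 and 108 ± 12.6, against 712 ± 72.8). Inppl1, encoding SHIP2, the relative of the Inpp5d product, was lower in both (-1.89 and -3.35). Ptpn6, encoding the tyrosine phosphatase SHP-1, rose by 0.68 in Ebf1-KO.

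Of the 5 kinases, 1 rose and 2 fell in Ebf1-KO, and 3 rose and 1 fell in Pax5-KO. Sgk1, a kinase related to AKT, was lower in Ebf1-KO (-3.98; 2.80 ± 1.38) and higher in Pax5-KO (1.34; 150.1 ± 52.9) than in WT (56.8 ± 7.74), and its direct contrast passed as well, while Sgk3 rose in both (0.79 and 0.54). Btk, a kinase of the B cell receptor, was lower in both (-1.14 and -0.78; 336 ± 42.99 in Ebf1-KO and 429 ± 30.2 in Pax5-KO, against 736 ± 13.2 in WT).

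Further down the pathway, 4 of 17 genes of the mTOR complexes and their regulators rose and 5 fell in each knockout. Mtor itself was lower in both (-2.59 and -2.57), with 753 ± 37.5 in Ebf1-KO and 761 ± 31.04 in Pax5-KO, against 4524 ± 94.5 in WT libraries. Its inhibitor Deptor was lower in Ebf1-KO (-2.05), and Ddit4, a stress-induced inhibitor of mTORC1, in Pax5-KO (-2.19). Akt1s1, an AKT substrate in mTORC1, rose in both (0.82 and 0.67), Tsc1 rose by 0.48 in Ebf1-KO and Sesn1 by 0.46 in Pax5-KO. Tsc1 averaged 413 ± 22.8 in Ebf1-KO, 385 ± 27.9 in Pax5-KO and 295 ± 19.7 in WT libraries. Sesn1 averaged 554 ± 51.7, 552 ± 21.5 and 403 ± 52.8 in the same order.

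Of the 7 AKT substrates, 2 rose and 2 fell in Ebf1-KO, and 2 fell in Pax5-KO. Foxo1 averaged 30.8 ± 3.24 in Ebf1-KO, 620.1 ± 51.3 in Pax5-KO and 2599 ± 476 in WT libraries (-6.34 and -2.05). Foxo3 rose by 1.22 and Bad by 0.57 in Ebf1-KO, and Cdkn1b, a cell cycle inhibitor, was lower in both (-0.84 and -1.25). Among 5 other PIP3-binding proteins, 2 rose and 1 fell in each knockout: Dapp1, an adaptor of B cells, rose by 1.78 and 0.51, Plekha1 by 0.86 in Ebf1-KO, Plcg2, the phospholipase of the B cell receptor, by 0.57 in Pax5-KO, and Plekha2 was lower in both (-1.16 and -1.07).

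**Figure D5:**
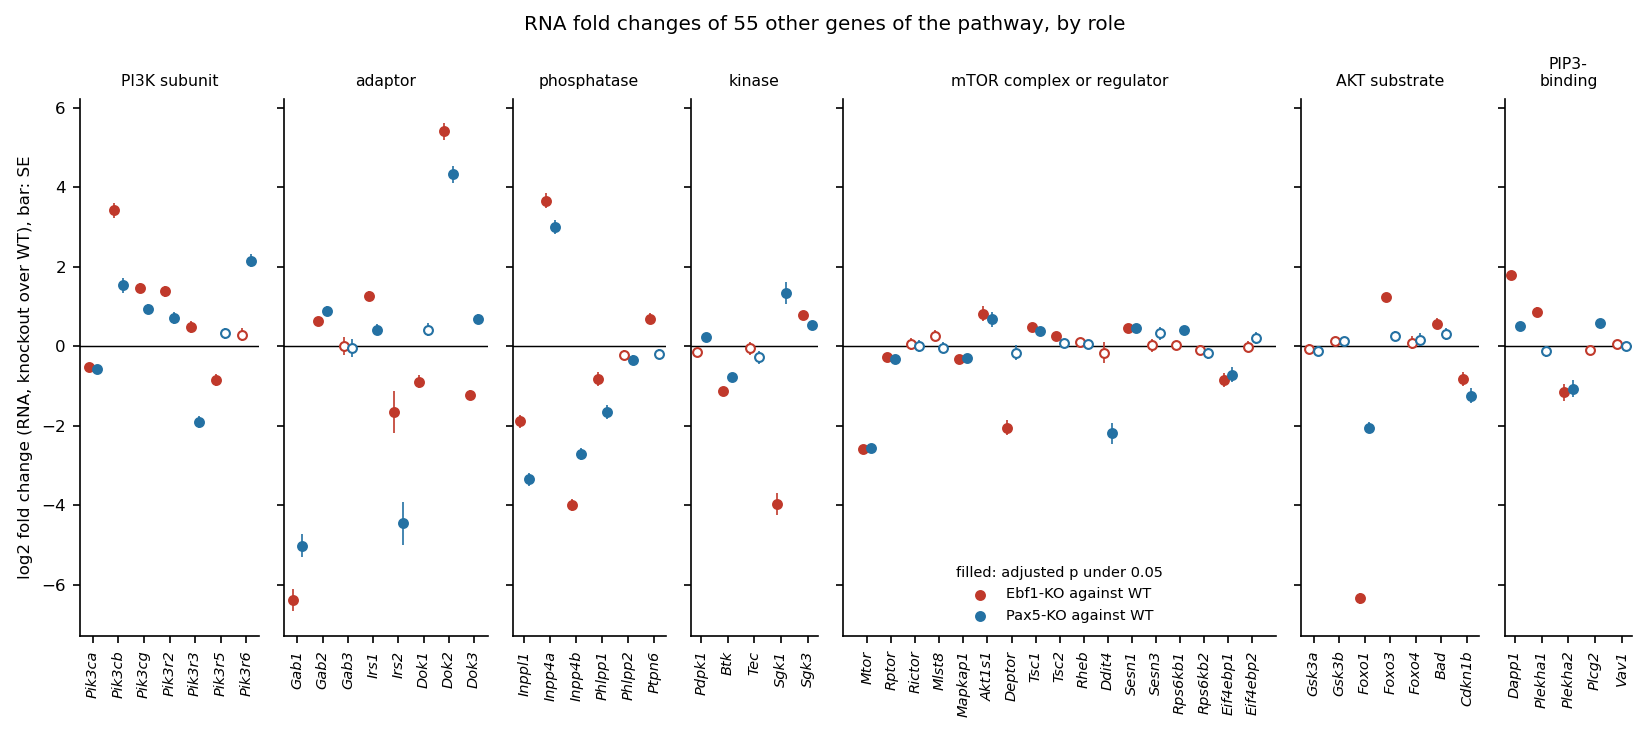
RNA log2 fold changes (vertical axis, bars SE) of the 55 other pathway genes, grouped by role, in Ebf1-KO and Pax5-KO against WT; filled points passed an adjusted p under 0.05 (limma). Both colours lie on the same side for Gab1, Inpp4a, Inpp4b and Mtor, and on opposite sides for Sgk1 and Pik3r3. The higher Pik3r3 call in Ebf1-KO (0.47, adjusted p = 0.0191, limma) was lost without Ebf1-KO library 1 or WT library 1 or 2.

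The genes whose RNA profile over the 9 libraries lay nearest each of the 7, by root mean square difference of centred log2 values among 11092 genes, were the following. Nearest to Pik3ap1 were Slc25a15 (0.134), Snx25 (0.137) and Gpsm2 (0.169). For Pik3ip1 they were Tob1 (0.156), Dapp1 (0.163) and Cnr2 (0.190), of which Dapp1 is itself a gene of the pathway list. Pik3r1 was nearest to Eid1 (0.101), Gabarapl1 (0.127) and Atl1 (0.129). Pik3cd and Inpp5d had Wash1 in common (0.0910 and 0.0674), beside Tspan14 (0.0771) for Pik3cd and Tmem206 (0.0334) and Taf1d (0.0704) for Inpp5d. Akt1 was nearest to Naa10 (0.0374), Ppie (0.0572) and Pop7 (0.0632), and Akt2 to Sec22c (0.0706), Pacsin2 (0.0830) and Cntrob (0.0847). Genes that vary little, such as Akt1, lie close to many others by this measure.

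The authors' deposited tables of changed genes list 3 of the 7. In the authors' deposited table, Pik3ap1 had log2 fold changes of -1.62 in Ebf1-KO and -1.22 in Pax5-KO against WT, and Pik3r1, by its transcript NM_001077495, 1.62 and 1.92. The authors' deposited table lists Pik3ip1 at 1.92 in Ebf1-KO against WT. Their lists of bound regions near genes that changed hold 4 Pik3ap1 regions for EBF1 and 4 for PAX5, with the promoter region in both, at rank 63 of 849 by the authors' peak score for EBF1 and 42 of 597 for PAX5, and the region 6050 bp upstream at rank 34 of 597 for PAX5. The Pik3ip1 intron region is in the EBF1 list of genes lower in WT, at rank 109 of 754.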

How the data were processed

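RNA-seq and ATAC-seq of mouse fetal liver ProB cells gave 3 libraries per genotype and assay, and ChIP-seq peaks of EBF1 and PAX5 came from re-analysed published data. Per the file headers, the authors deposited RNA signal as exon reads scaled to 10 M mapped reads, and ATAC signal as tags in bound regions scaled to 10 M tags; the submitters' processing notes name TopHat, HOMER, edgeR and DESeq2 for RNA, and Bowtie2 and HOMER for ATAC, on mm10, with no version given in the sources used here. The authors' deposited comparison tables hold log2 fold changes with adjusted p-values, and their peak lists a score per peak; these were used as described in the text. A further 36 columns of per-library values in those tables were not used.

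Whole reads (within 0.1 reads) were recovered from 99.9937% to 100.0% of RNA values and 100.0% of ATAC values. The deposited RNA values were rescaled by TMM factors (edgeR 4.0.16) because exon reads made up 47.0% to 71.4% of mapped reads, and ATAC values kept the deposited scaling. Log2 values with a pseudocount of 1 were fitted with limma 3.58.1 (trend, 9 libraries in 1 model per assay, R 4.3.3) over 12839 genes and 14365 regions (at least 10 reads over 9 libraries), with Benjamini-Hochberg adjustment. Fold changes on this scale understate changes of low genes. The 3 contrasts share groups. The 95% intervals are normal ones from the SE. The test steps were tested on simulated data.

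The members and lists were chosen with earlier results of these data known, as was TMM as the main RNA scaling; the within-library ratios and the PAX5 core were added after values had been seen. All 7 genes are named; other pathway genes are, per comparison and role, up to 2 called in each direction by size with a mean of at least 10; Pik3r2 and further genes are counted only, and a few genes are not reported here. Regions are named where called, at most 12 by adjusted p, with each gene's region of highest signal; others were added after their values were seen. In RNA, same-numbered libraries deviated together (9 correlations of 0.121 to 0.424, against -0.349 to 0.027 for other numbers), so numbers were taken to pair samples. The main fit leaves this pairing out, and the replicate block takes it in. Alternatives were deposited, TMM and quantile scaling, other pseudocounts, no filter, 2-group fits, a replicate block, edgeR, DESeq2 1.42.0 and leaving out each library.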

Additional observations from a re-analysis of the deposited data

How the results depend on the processing

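Of the counts of calls, 3 moved by more than 1.5 times under an alternative: regions of the 7 genes called in Ebf1-KO against WT were 8 with quantile normalization and 9 with DESeq2, against 14, and all regions called in Pax5-KO against WT were 5035 with TMM scaling, against 7708. Leaving out 1 library gave 10 to 14, 8 to 10 and 5 to 7 regions of these genes in Ebf1-KO against WT, Pax5-KO against WT and Ebf1-KO against Pax5-KO, and 5 to 5, 3 to 4 and 5 to 6 of the 7 genes. With the replicate block, the RNA calls among the 7 genes were 5, 4 and 7, against 5, 4 and 6, the added one being Akt1 between the knockouts, and 8322, 7377 and 6190 genes were called, against 7460, 6399 and 5151; of the 55 other pathway genes 37, 37 and 33 were called, against 37, 35 and 28. ATAC numbers did not pair the samples (same-number correlations -0.052 to 0.1103), and the replicate block left 14, 10 and 7 regions of these genes.

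Values that changed sign in RNA were Akt1 in Ebf1-KO (0.19), Pik3cd in Pax5-KO (0.12) and Inpp5d in Pax5-KO (0.18) with the deposited scaling, Pik3cd in Pax5-KO without WT library 1 (0.0127; range over left-out libraries from -0.25) and Akt1 in Pax5-KO without Pax5-KO library 3 (-0.00696; up to 0.25). In ATAC, TMM scaling reversed Akt2 4494 bp (0.37) and Inpp5d 32621 bp downstream (0.16) in Ebf1-KO, and in Pax5-KO Akt2 4494 bp (0.67), Pik3ip1 1816 bp (0.24), Inpp5d 37941 bp (0.46), 16911 bp (0.16), 32621 bp (0.52) and 32044 bp (0.54) and Pik3ap1 56128 bp downstream (0.41) and 17149 bp upstream (0.19). Quantile normalization reversed these too (0.62 and 0.56 in Ebf1-KO; 0.95, 0.29, 0.71, 0.32, 0.63, 0.67, 0.51 and 0.25 in Pax5-KO), with Akt2 12929 bp upstream (0.47), Pik3ap1 2422 bp (0.15) and 53897 bp downstream (0.0957) and 17149 bp upstream (0.0562) and Inpp5d 32044 bp downstream (0.41) in Ebf1-KO, and Pik3cd 1952 bp downstream (0.0393) in Pax5-KO. Leaving out 1 library reversed, against WT, Pik3ap1 56128 bp downstream in Ebf1-KO (-0.000863 without Ebf1-KO library 3; up to 0.40) and 53897 bp downstream in Pax5-KO (-0.0309 without WT library 1; up to 0.24). Between the knockouts, sign changes were Pik3r1 68398 bp downstream with a pseudocount of 5 (-0.00794), with edgeR (-0.28) and without Pax5-KO library 3 (-0.44; up to 0.26), Pik3ap1 6050 bp upstream without Ebf1-KO library 1 (-0.0115; up to 0.11), 2422 bp downstream without Pax5-KO library 1 (-0.17; up to 0.66) and 30160 bp downstream without Pax5-KO library 2 (-0.11; up to 0.33), Pik3r1 160200 bp upstream without Ebf1-KO library 2 (-0.43; up to 0.52) and Inpp5d 32621 bp downstream without Ebf1-KO library 1 (0.0767; from -0.70). The cause was not tested. Over the 7 genes, the named pathway genes and all 19 regions, and taking for left-out libraries the lowest and highest value of each, 1508 alternative values kept direction and side of the threshold, 62 lost a call, 14 gained one with the same sign and 41 changed sign. Regions with under 20 reads in every library limit what ATAC can show.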
